A study of Mus musculus with 6 samples.

Results

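The 10 genes described here are components and response genes of fibroblast growth factor (FGF) signalling through the kinase ERK: Fgf4, Fgfr1, Fgfr2, Etv4, Etv5, Spry2, Spry4, Dusp6, Spred1 and Egr1. They were picked by gene symbol for their place in the pathway, and the rule uses no measured value. Each symbol matched 1 entry, which gives 10 of the 21639 entries of an RNA-Seq expression table. All 10 were above 1 RPKM (read density scaled to transcript length and library size) in every library.

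Mouse embryonic stem cells (ESCs) express FGF4 themselves, and FGF4 signals mainly through FGFR1, with FGFR2 as a second receptor that is typical of primitive endoderm. The receptors pass the signal through RAS and RAF to ERK, which turns on ETS factors such as ETV4 and ETV5, immediate early genes such as Egr1, and the inhibitors SPRY2, SPRY4, DUSP6 and SPRED1 that feed back on the pathway. In ESCs this pathway is known for its role in the exit from pluripotency and in the choice between epiblast and primitive endoderm.

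Expression was compared between 3 lines, named WT, KD and AP3 after their H2A.Z, in the ESC state (D0) and in embryoid bodies (EBs) at D3, which are aggregates that form when ESCs are cultured without leukemia inhibitory factor (LIF). H2A.Z is a histone variant, and AP3 is a mutant of it in which 3 residues of the acidic patch, a charged surface of the nucleosome, carry the amino acids of canonical H2A. According to the methods, the WT and AP3 lines are KH2 ESCs with a YFP-tagged transgene driven by a doxycycline-inducible CMV promoter. Their YFP-positive cells were sorted, and they also carry the hairpin against the 3' UTR of endogenous H2A.Z that defines the KD line. The labels give the V6.5 background (129SvJae and C57BL/6) for every library and describe all 6 as ES cells. ESCs were kept in serum and LIF on irradiated fibroblasts, which were left out at the final passage.

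There was 1 library for each of the 6 conditions, so no error between cultures and no p-value can be given. Depth was 19.9 to 31.1 M reads, worked out from the lowest peak in RPKM times transcript length, which was taken as 1 read. The reads behind the values of the 10 genes came to 98 (Fgfr2, AP3 at D0) to 10178 (Etv5, AP3 at D0), and outside Fgfr2 the lowest estimate was 343. The errors given below are standard errors of a log2 ratio from this counting alone, and the libraries have no molecular identifiers that would separate PCR copies. An entry was counted as changed when its RPKM ratio passed 1.5-fold, which is 0.58 on the log2 scale. The comparisons share libraries: AP3 and KD were both set against the same WT library of each day. Scaling to Gapdh, Tubb5 and Cltc in place of the deposited scale lowered log2 changes by 0.28 in AP3 against WT at D3, by 0.14 in KD against WT at D3 and by 0.12, 0.36 and 0.41 in D3 against D0 of WT, KD and AP3, and is named below where it alters a call of one of the 10 genes or a count given for a list. The scaling genes were themselves not level: Gapdh had a log2 change of 0.58 and Cltc of 0.04 in AP3 against WT at D3, and Gapdh passed 1.5-fold in AP3 against KD at D3, Cltc in D3 against D0 of KD and Tubb5 in D3 against D0 of AP3.

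The targeted gene H2afz did not follow the KD label at D0, where it stood at 279 RPKM in WT, 343 RPKM in KD and 304 RPKM in AP3. At D3 it was at 258, 236 and 394 RPKM in the same order. Reads from the transgenes, which share the coding sequence of H2afz, may be part of the WT and AP3 values. The methods state that the hairpins went into the transgenic lines, so KD cells may carry a transgene too. The part of transgene reads in any of these values was not tested. The KD samples are therefore called the libraries labelled KD. The 4 pluripotency markers found in the table (of 5 listed) summed to 907 to 934 RPKM at D0 and 673 to 840 RPKM at D3. Within the D0 sum Sox2 was at 191, 196 and 110 RPKM in WT, KD and AP3 ESCs, lower past 1.5-fold in AP3 than in WT (log2 change -0.80). Pou5f1 went the other way, at 421, 413 and 540 RPKM (log2 change 0.36), and Zfp42 and Esrrb were level, at -0.06 each. The 4 primed epiblast markers summed to 35.4 to 48.8 RPKM at D0 and 108 to 138 RPKM at D3, with Otx2 at 1.37 RPKM in AP3 ESCs and 4.22 RPKM in WT. The 4 mesoderm markers summed to 1.84 to 3.74 RPKM. In AP3 and WT EBs Kdr was at 1.36 and 0.142 RPKM and T at 0.66 and 0.342 RPKM. Eomes, at 1.72 and 1.86 RPKM, and Mesp1, at 0 and 0.0311 RPKM, went the other way. In ESCs Kdr was lower in AP3 (0.188 RPKM) than in WT (0.507 RPKM).

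Per length and over the 6 libraries, mean levels ran from 89.6 RPKM for Etv5 through 66.3 for Spry2, 60.2 for Egr1, 51.8 for Fgf4, 29.2 for Etv4, 28.7 for Dusp6, 25.5 for Spred1, 24.4 for Spry4 and 16.3 for Fgfr1 to 2.78 for Fgfr2. These means pool D0 and D3, and the ranges over the 6 libraries overlap for many pairs: Egr1 spans 4.29 to 146 RPKM, and Etv4, Dusp6, Spred1 and Spry4 overlap each other, as do Fgf4 and Spry2. The order of such genes is not fixed by these values. The highest library exceeded the lowest by 1.17-fold for Etv5, 1.38-fold for Spred1, 1.39-fold for Fgf4, 1.45-fold for Fgfr1, 1.52-fold for Dusp6 and 1.77-fold for Spry2. The same ratio was 2.6 for Fgfr2, 2.81 for Spry4, 9.12 for Etv4 and 34.1 for Egr1.

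**Figure D1:**
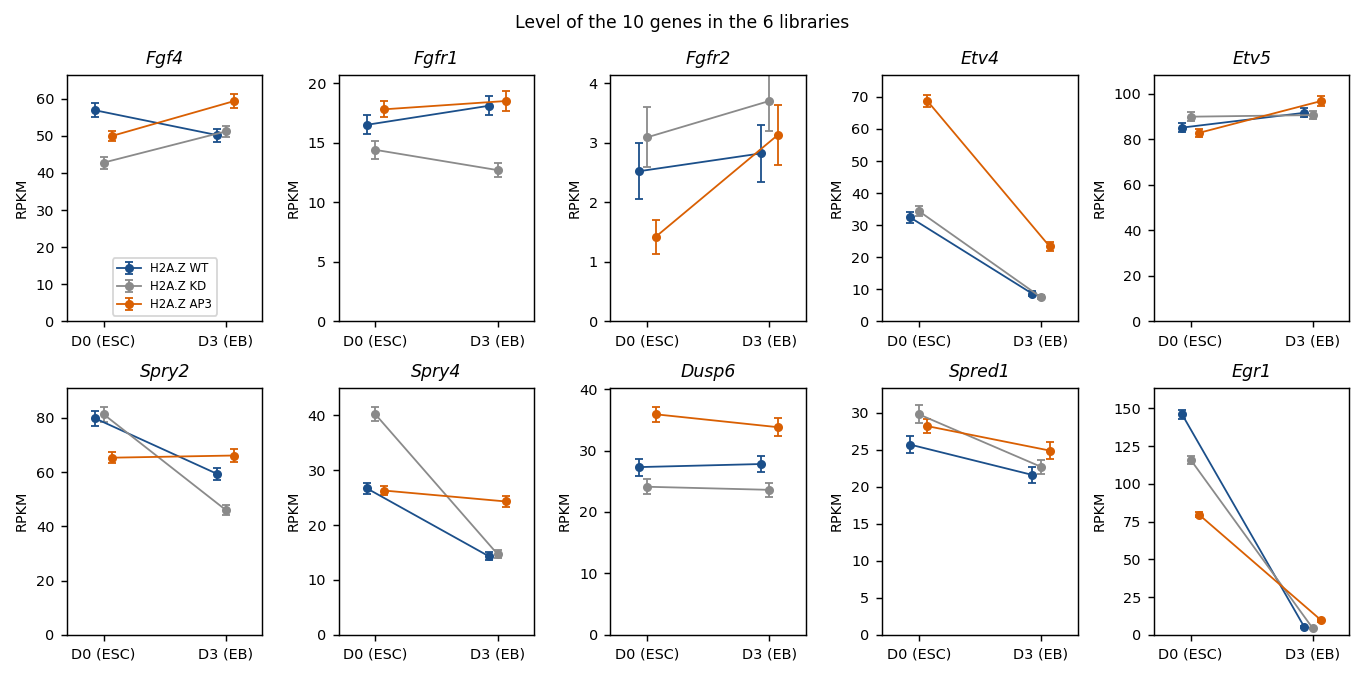
RPKM (linear axis from 0) of each of the 10 genes at D0 and D3, with 1 point for each library, coloured by line. Bars are 95% counting intervals and lines join the libraries of 1 line. Etv4 and Egr1 fell steeply in every line, Etv5 stayed between 82.9 and 96.9 RPKM, and the AP3 points of Etv4 lie above the other lines on both days.

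The ligand Fgf4 is a secreted growth factor and the main FGF of ESCs. It lies on chromosome 7 from 152047291 to 152051148 on the plus strand of mm9 and has 3 exons. Its level was 56.9 RPKM in WT, 42.8 in KD and 50 in AP3 ESCs, and 50.2, 51.2 and 59.4 RPKM in the EBs of the same lines. The values lay close together in all 6 libraries, and no comparison reached 1.5-fold. The lowest value, in ESCs labelled KD, was lower than in WT ESCs by 1.33-fold (log2 change -0.41, counting error 0.04). In bulk samples such as these, fewer cells of a type and less RNA per cell cannot be told apart.

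Fgfr1 encodes the main FGF receptor of ESCs and lies on chromosome 8 from 26629244 to 26686186 on the plus strand. Its level was 16.5, 14.4 and 17.8 RPKM in WT, KD and AP3 ESCs and 18.1, 12.7 and 18.5 RPKM in EBs. Both libraries labelled KD were below the other 4, and the gap at D3 was 1.42-fold against WT and 1.45-fold against AP3, just inside the threshold.

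Fgfr2, the receptor associated with primitive endoderm, lies on chromosome 7 from 137305965 to 137410322 on the minus strand, with 19 annotated transcripts. It was the lowest of the 10 genes, at 2.52, 3.09 and 1.42 RPKM in WT, KD and AP3 ESCs and 2.82, 3.7 and 3.13 RPKM in EBs. The AP3 ESC library was low and the other 5 lay between 2.52 and 3.7 RPKM. Against WT ESCs the log2 change was -0.82 with a counting error of 0.20, and from D0 to D3 within AP3 Fgfr2 rose by 2.2-fold (counting error 0.19 in log2 units). Adding 1 RPKM to both values in place of 0.001, the difference from WT no longer passed 1.5-fold. At D0 the 5 primitive endoderm markers stood the other way, with a sum of 57.2 RPKM in AP3 ESCs against 21.1 in WT and 25.2 in KD, and all 5 passed 1.5-fold upward against WT. At D3 their sum was 78.6 RPKM in WT, 108 in AP3 and 190 in KD EBs, where the Fgfr2 values of AP3 and WT did not differ beyond counting error. Dab2 alone made up 41.8, 70.3 and 129 RPKM of these sums in the same order.

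Etv4, an ETS-family transcription factor induced by FGF signalling, showed the clearest difference between the lines. It lies on chromosome 11 from 101631056 to 101646624 on the minus strand and has 13 exons. Its level was 32.4 RPKM in WT, 34.4 in KD and 68.7 in AP3 ESCs, and 8.62, 7.53 and 23.4 RPKM in EBs. WT and KD were close to each other on both days and AP3 was above them. Against WT, Etv4 was 2.12-fold higher in AP3 at D0 (log2 change 1.09, counting error 0.04) and 2.71-fold higher at D3 (log2 change 1.44, counting error 0.08). Against the libraries labelled KD the AP3 level was 2-fold higher at D0 and 3.1-fold higher at D3. All 3 lines lost Etv4 from D0 to D3, by 3.76-fold in WT, 4.57-fold in KD and 2.94-fold in AP3, so that AP3 EBs remained below the ESCs of every line.

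Etv5, the close relative of Etv4, did not show this pattern. It lies on chromosome 16 from 22381386 to 22439643 on the minus strand. Its level was 85.2, 90 and 82.9 RPKM in WT, KD and AP3 ESCs and 91.7, 90.7 and 96.9 RPKM in EBs. It was the steadiest of the 10 genes: the AP3 libraries gave both its highest and its lowest value. The log2 change of AP3 against WT was -0.04 at D0 and 0.08 at D3, each with a counting error of 0.02.

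Spry2 encodes an inhibitor that acts on the signal between receptor and RAF, and it lies on chromosome 14 from 106291164 to 106296036 on the minus strand. Its level was 79.8, 81.3 and 65.3 RPKM in WT, KD and AP3 ESCs and 59.3, 46 and 66.1 RPKM in EBs. AP3 was the lowest line at D0 and the highest at D3, though with the 3-gene scaling it was below WT at D3 (log2 change -0.13). The fall from D0 to D3 passed 1.5-fold only in KD (1.77-fold), and it was 1.35-fold in WT, whereas the AP3 libraries differed by 1.01-fold.

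Spry4, a paralogue of Spry2 with the same kind of inhibitory role, lies on chromosome 18 from 38745919 to 38760922 on the minus strand. Its level was 26.7, 40.2 and 26.3 RPKM in WT, KD and AP3 ESCs and 14.3, 14.7 and 24.3 RPKM in EBs. At D0 the library labelled KD stood above the other lines, and at D3 AP3 did. From D0 to D3 Spry4 fell by 1.87-fold in WT and 2.74-fold in KD, while AP3 differed by 1.08-fold. As a result Spry4 was 1.7-fold higher in AP3 than in WT EBs (log2 change 0.77, counting error 0.05) against a log2 difference of -0.02 in ESCs. With the 3-gene scaling the EB difference was 0.48 and did not pass.

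Dusp6 encodes the phosphatase that removes the activating phosphates of ERK, and lies on chromosome 10 from 98725865 to 98730122 on the plus strand. Its level was 27.3, 24.1 and 35.9 RPKM in WT, KD and AP3 ESCs and 27.8, 23.6 and 33.8 RPKM in EBs. The order AP3, WT, KD was the same on both days and hardly moved with time. AP3 exceeded WT by 1.32-fold at D0 and 1.21-fold at D3, and exceeded KD by 1.49-fold at D0, none of which passed the threshold. With the 3-gene scaling the D3 difference from WT was 0.00 on the log2 scale.

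Spred1, which restrains RAF activation, lies on chromosome 2 from 116947186 to 117005072 on the plus strand. Its level was 25.7, 29.8 and 28.2 RPKM in WT, KD and AP3 ESCs and 21.6, 22.7 and 24.9 RPKM in EBs. Every EB library was below every ESC library, but the differences, 1.19-fold in WT, 1.31-fold in KD and 1.13-fold in AP3, did not pass 1.5-fold. They did in KD and AP3 with the 3-gene scaling.

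Egr1, an immediate early zinc finger transcription factor that ERK activity switches on within a short time, lies on chromosome 18 from 35020861 to 35024610 on the plus strand and has 2 exons. Its level was 146 RPKM in WT, 116 in KD and 79.5 in AP3 ESCs, and 5.27, 4.29 and 9.52 RPKM in EBs. ESCs were far above EBs in every line, and AP3 was the lowest line at D0 and the highest at D3. Egr1 fell from D0 to D3 by 27.7-fold in WT and 27.2-fold in KD but by 8.35-fold in AP3. The log2 change of AP3 against WT was -0.88 at D0 (counting error 0.02) and 0.85 at D3 (counting error 0.10). With the 3-gene scaling the D3 value was 0.57, just inside the threshold.

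The comparison of AP3 with WT addresses what the acidic patch mutant does to expression in place of the wild-type transgene. At D0, 3 of the 10 genes had changed, with Etv4 higher and Fgfr2 and Egr1 lower, where 13.9% of the 12162 entries of at least 1 RPKM in either library and 25% of all entries passed 1.5-fold. The median log2 change of the 10 genes was -0.03. At D3, 3 of the 10 had changed (Etv4, Spry4 and Egr1, all higher), against 10.2% of entries of at least 1 RPKM and 22.1% of all entries. The median was 0.22, beside -0.01 over entries of at least 1 RPKM. All 10 log2 changes were above 0 at D3, but the 3-gene scaling left 3 of 10 above 0 with a median of -0.06, and only Etv4, at 1.16, still passed 1.5-fold.

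**Figure D2:**
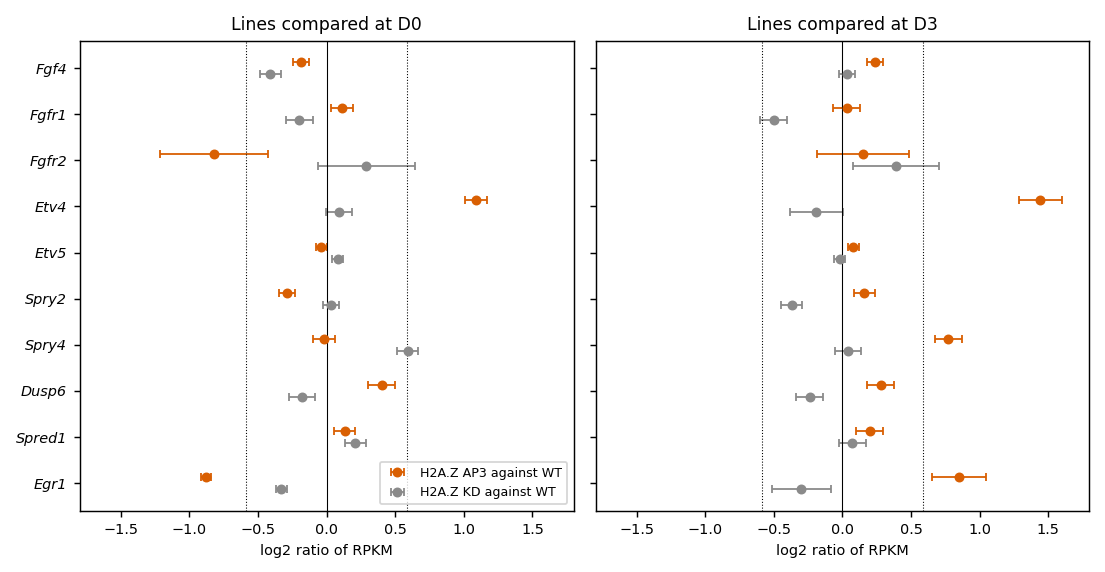
Log2 ratio of RPKM of AP3 (orange) and of the library labelled KD (grey) to WT at D0 and D3 for each of the 10 genes. Points are single library pairs, bars are 95% counting intervals and dotted lines mark 1.5-fold. Etv4 lies beyond the upper line for AP3 at both days, and Egr1 lies beyond the lower line at D0 and beyond the upper line at D3.

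**Figure D3:**
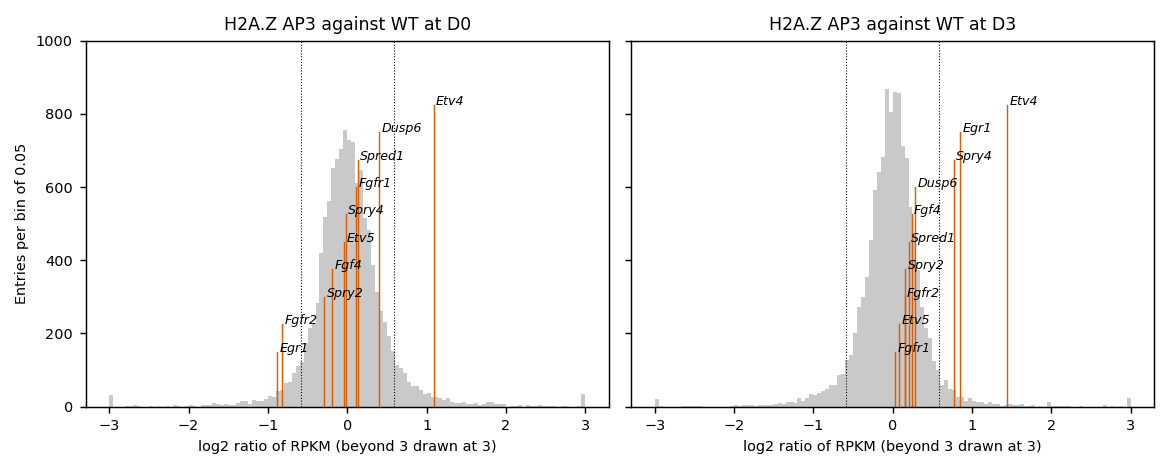
Histograms of the log2 RPKM ratio of AP3 to WT over all entries of at least 1 RPKM in either library (grey, bins of 0.05), with the 10 genes drawn as orange lines at their own values. The heights of the orange lines only separate the names, and dotted lines mark 1.5-fold. At D3 all 10 lines stand right of 0, from 0.03 for Fgfr1 to 1.44 for Etv4, whereas 3 of 10 do with scaling to Gapdh, Tubb5 and Cltc.

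Marker genes of other cells moved with the AP3 library at D0. The 7 feeder fibroblast markers summed to 44.9 RPKM in AP3 ESCs, 26.1 in WT and 22.9 in KD, and 4 of the 5 of at least 1 RPKM passed 1.5-fold upward against WT. In EBs the same sum was 12.7 in WT, 7.23 in KD and 9.35 in AP3, but Thy1 made up 9.19, 5.48 and 3.56 RPKM of it. Without Thy1 the other 6 summed to 3.5, 1.75 and 5.79 RPKM, highest in AP3, and against WT Col1a1 and Col1a2 passed 1.5-fold upward and Thy1 downward. Under the 3-gene scaling Col1a1, at 0.46, and Col1a2, at 0.58, no longer passed. Of these markers Postn was at 0 in AP3 ESCs and in all EBs, and Lum was at 0 in WT ESCs, WT EBs and KD EBs. The primitive endoderm sums given above were higher in EBs than in ESCs of the same line. In AP3, however, Dab2 went from 22.4 to 70.3 RPKM and Sox17 from 2.7 to 4.96. Gata4 went from 12.1 to 13.3 RPKM, Gata6 from 9.84 to 12.3 and Pdgfra from 10.2 down to 6.85. The part of these cells in the levels of Etv4, Fgfr2 and Egr1 in the AP3 libraries, and in the differences between D0 and D3, was not tested.

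**Figure D4:**
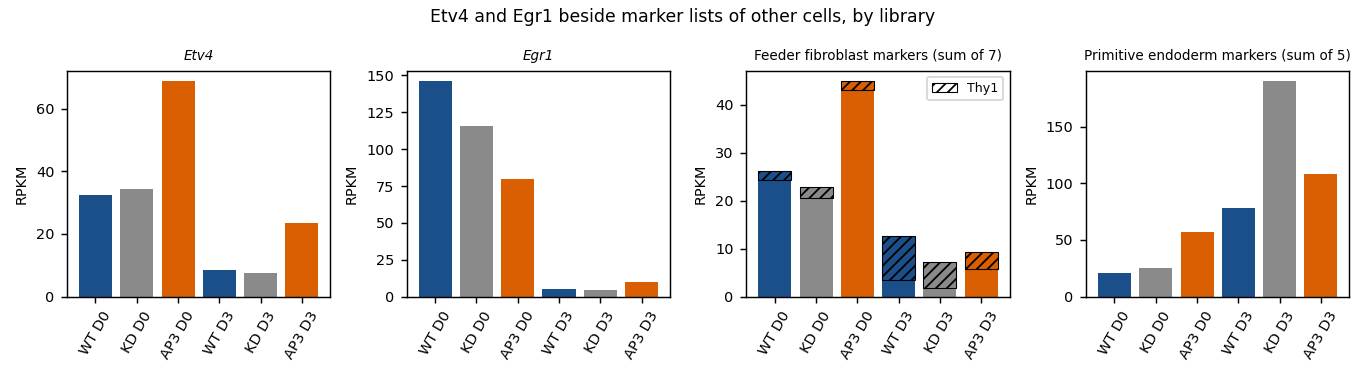
RPKM of Etv4 and Egr1, and the summed RPKM of 7 feeder fibroblast and 5 primitive endoderm markers, in the 6 libraries (bars start at 0, 1 library each, and the hatched part is Thy1). The fibroblast sum is highest in AP3 ESCs (44.9), as Etv4 is (68.7). Among EBs the sum is highest in WT (12.7) with Thy1 and in AP3 (5.79) without it.

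The libraries labelled KD were set against WT, whose cells carry the hairpin too and express the transgene. At D0, 1 of the 10 genes differed from WT (Spry4, 1.5-fold higher, log2 change 0.59), against 8.02% of entries of at least 1 RPKM and 19.7% of all entries. At D3 none of the 10 did, against 8.59% and 20.7%, and the values nearest to the threshold were Fgfr1 at -0.50 and Fgfr2 at 0.39 on the log2 scale. Fgfr1 passed with the 3-gene scaling. The Spry4 value at D0 was at the threshold itself and passed by less than its counting error of 0.04.

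AP3 set against KD at D0 gave 3 changed genes, Etv4 higher (log2 change 1.00) and Fgfr2 (-1.12) and Spry4 (-0.61) lower, where 18.4% of entries of at least 1 RPKM and 27% of all entries passed. Egr1, at -0.55, joined them at -0.59 when centred on the median ratio, -0.62 with upper quartile scaling and -0.64 with the 3-gene scaling, which made 4 changed genes in each. At D3 there were again 3, Etv4 (1.63), Egr1 (1.15) and Spry4 (0.73), all higher, against 11.3% and 22.7%. The median of the 10 genes was -0.10 at D0 and 0.52 at D3, and 9 of 10 were above 0 at D3. With the 3-gene scaling 7 of 10 were above 0 and the D3 median was 0.38. Fgfr1, Spry2 and Dusp6 lay just inside the threshold at D3, at 1.45, 1.44 and 1.43-fold.

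From D0 to D3 in WT, 3 of the 10 genes fell (Etv4 -1.91, Spry4 -0.90, Egr1 -4.79 on the log2 scale), against 23% of entries of at least 1 RPKM and 30.7% of all entries that passed in either direction. In the libraries labelled KD 4 fell (Etv4 -2.19, Spry2 -0.82, Spry4 -1.45, Egr1 -4.76), against 22.3% and 30.2%. In AP3 2 fell (Etv4 -1.55, Egr1 -3.06) and Fgfr2 rose, which made 3 changed genes against 24.3% and 31%. The shares in WT and AP3 were thus close to the background. Of the 4 inhibitors, Spry4 fell past 1.5-fold in WT and KD and Spry2 in KD, while the fall of Spry2 in WT (1.35-fold) did not pass. Spred1 was lower at D3 in WT, KD and AP3 (-0.25, -0.39 and -0.18) and passed in KD and AP3 only with the 3-gene scaling. Dusp6 differed by at most 1.06-fold in any line.

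**Figure D5:**
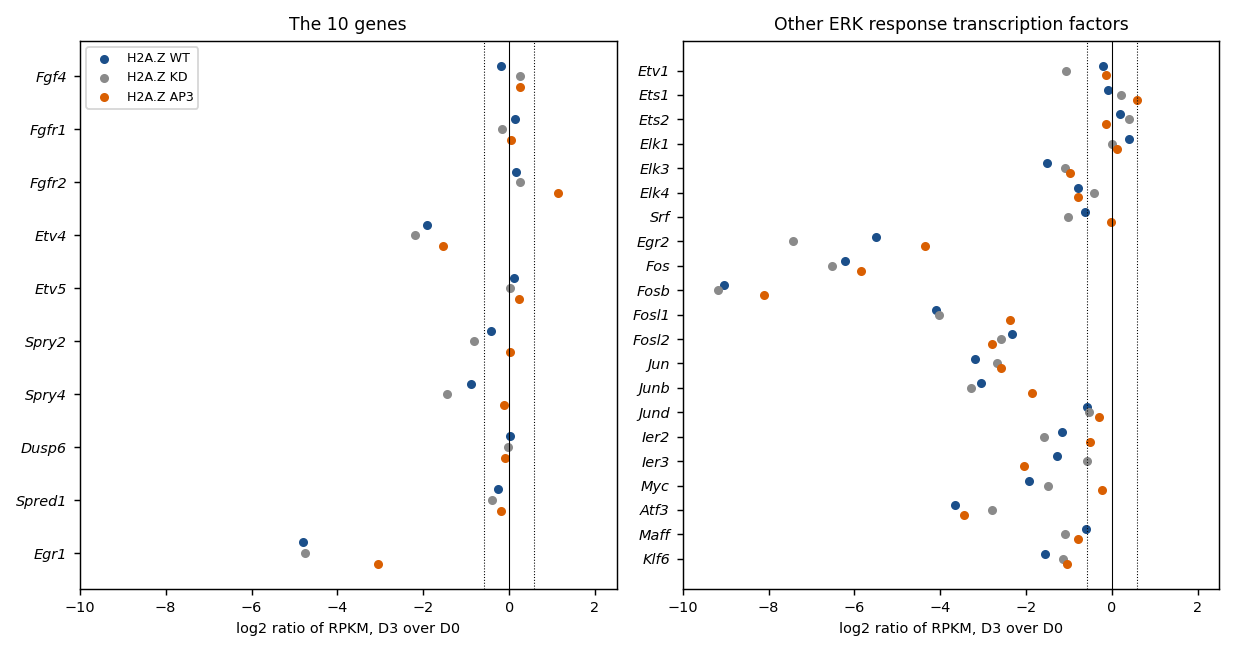
Log2 ratio of RPKM, D3 over D0, in the 3 lines for the 10 genes and for 21 other ERK response transcription factors above 0 in every library. Each point is 1 line and dotted lines mark 1.5-fold. Egr1 lies at -3.06 in AP3, at -4.79 in WT and at -4.76 in KD, and among the other factors Fosb lies furthest below 0 in every line.

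The wider pathway was described by 5 lists of 93 genes, of which 78 had a mean of at least 1 RPKM. Of the 23 adaptors and RAS-ERK cascade genes AP3 against WT gave 1 higher at D0 and 1 lower at D3, beside 13.9% and 10.2% of all entries of at least 1 RPKM. KD against WT gave none on either day, beside 8.02% and 8.59%. The 3-gene scaling made this 3 lower in AP3 and 1 lower in KD at D3. Of this list Ksr1, a scaffold of the cascade, fell from D0 to D3 in every line, from 2.91 to 1.73 RPKM in WT, from 2.41 to 1.33 in KD and from 2.16 to 1.3 in AP3.

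Of the FGF ligands of at least 1 RPKM, 3 of 7 were higher and 1 lower in AP3 than in WT at D0 and 1 of 9 was lower at D3 (3 with the 3-gene scaling), beside 13.9% and 10.2% of all entries of at least 1 RPKM. From D0 to D3, 3 of 10 were higher and 1 lower in WT, 5 of 10 and 2 in KD, and 4 of 9 and 2 in AP3, beside 23%, 22.3% and 24.3%. The 3-gene scaling made the AP3 counts 2 higher and 3 lower. Fgf10 was at 2.38, 1.36 and 7.44 RPKM in WT, KD and AP3 ESCs and Fgf3 at 0.677, 0.573 and 1.9 RPKM, both highest in AP3. In EBs Fgf10 was at 3.3, 5.79 and 3.63 RPKM and Fgf3 at 1.99, 3.22 and 1.89 RPKM, both highest in KD. Fgf5, an epiblast ligand, stood at 0.539, 1.11 and 0.106 RPKM in WT, KD and AP3 ESCs and at 7.34, 7.45 and 5.51 RPKM in EBs. Fgf15 rose in each line as well, from 0.704 to 2.45 RPKM in WT, from 1.5 to 3.98 in KD and from 0.535 to 3.51 in AP3. Fgf7, a ligand of mesenchymal cells, went the other way, with 6.2, 3.13 and 15.2 RPKM in ESCs and 0.511, 0.337 and 0.675 RPKM in EBs. AP3 ESCs had the highest Fgf7 level, as they had the highest fibroblast marker sum, and its part in that level was not tested. Among 12 receptors and coreceptors of at least 1 RPKM, 2 were higher and 0 lower in AP3 than in WT at D0, and none passed at D3, beside the same 13.9% and 10.2%. With the 3-gene scaling 1 was lower at D3 (Gpc3, -0.73). Gpc3, a glypican coreceptor, rose from 29.3 to 57 RPKM in WT, from 29.1 to 106 in KD and from 20.9 to 41.9 in AP3. Klb, the coreceptor of the endocrine FGFs, was at 0.436, 0.83 and 1.72 RPKM in ESCs and 2.03, 6.66 and 2.81 RPKM in EBs, and its rise in AP3 did not pass with the 3-gene scaling.

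Of the other feedback inhibitors of at least 1 RPKM, 3 of 12 were higher and 4 lower at D3 than at D0 in WT, 3 of 14 and 4 in KD, and 2 of 13 and 6 in AP3, beside 23%, 22.3% and 24.3% of all entries of at least 1 RPKM. Under the 3-gene scaling these counts were 3 and 4, 1 and 7, and 1 and 6. Dusp1, a nuclear phosphatase and immediate early gene, fell from 80.1 to 25.8 RPKM in WT, from 70.7 to 20.8 in KD and from 86.1 to 24.9 in AP3. Dusp5 and Errfi1, the latter an inhibitor of the EGF receptor, also fell in every line, by 0.84 to 1.75 and by 1.06 to 1.54 on the log2 scale. Spry1 rose, from 5.76 to 13 RPKM in WT, from 7.67 to 12.2 in KD and from 6.85 to 12.5 in AP3, the opposite of its paralogue Spry4 in WT and KD. With the 3-gene scaling the rise of Spry1 passed in WT but came to 0.31 in KD and 0.46 in AP3 on the log2 scale. Between AP3 and WT 1 of 13 of these inhibitors was higher at D0 and none of 12 passed at D3, beside 13.9% and 10.2% of entries.

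Most of the 22 other ERK response transcription factors fell from D0 to D3, with 18 lower in WT, 17 in KD and 14 in AP3 (23%, 22.3% and 24.3% of all entries of at least 1 RPKM passed in either direction), and with none higher in WT or KD and 1 (Ets1) in AP3. Under the 3-gene scaling 18, 19 and 17 were lower and none higher. Their median log2 change was -1.55, -1.32 and -1.03, beside 0.04 over entries of at least 1 RPKM in each line. These 22 are ERK targets in many cells, but other signals also induce several of them. The AP-1 subunit Fos was at 149, 122 and 66.3 RPKM in WT, KD and AP3 ESCs and at 1.99, 1.31 and 1.15 RPKM in EBs. Like Egr1 it was lowest in AP3 at D0, but unlike Egr1 it was also lowest in AP3 at D3, and both log2 changes of AP3 against WT (-1.17 and -0.79) passed. Fosb fell from 68.3, 62 and 32.7 RPKM to 0.129, 0.106 and 0.117 RPKM, levels of few reads, since 1 read on a transcript of 2 kb is worth 0.0192 to 0.0236 RPKM at D3. Junb was at 67, 79.6 and 45.9 RPKM in ESCs and 8.06, 8.11 and 12.7 RPKM in EBs, lowest in AP3 at D0 and highest in AP3 at D3, as Egr1 was.

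Between AP3 and WT, 3 of the 22 factors were higher and 4 lower at D0, and 5 of 19 were higher and 1 lower at D3, with medians of -0.28 and 0.18. Of all entries of at least 1 RPKM 13.9% and 10.2% passed in these comparisons. The D3 figures became 3 higher, 3 lower and a median of -0.10 with the 3-gene scaling. Etv1, the remaining member of the ETS subfamily of Etv4 and Etv5, was at 5.56, 6.01 and 8.97 RPKM in ESCs and 4.78, 2.84 and 8.2 RPKM in EBs. It was higher in AP3 than in WT on both days (log2 change 0.69 and 0.78), as Etv4 was and Etv5 was not, though its D3 value was 0.49 with the 3-gene scaling. Fosl1 was at 0.272 RPKM in WT, 0.252 in KD and 1.08 in AP3 EBs, and Elk3 at 1.82, 1.79 and 3.5 RPKM, so AP3 was highest for both. Ier3 was at 15, 14.6 and 38.5 RPKM in ESCs and Fosl2 at 6.33, 6.03 and 11.1 RPKM, also highest in AP3. In EBs Ier3 was at 6.16, 9.71 and 9.21 RPKM, highest in KD, and Fosl2 at 1.26, 1.01 and 1.59 RPKM, highest in AP3. Egr3 was at 1.7, 2.97 and 1.41 RPKM in ESCs and was listed at 0 in the EBs labelled KD, so no ratio is given for it.

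The remaining factors named by the rule, Atf3, Egr2, Jun, Klf6 and Maff, fell in every line with time. Jun fell from 52.2 to 5.71 RPKM in WT, from 39.2 to 6.09 in KD and from 36.4 to 6.02 in AP3. Atf3, a stress and growth factor response gene, fell from 25.1, 18.1 and 18 RPKM to 1.98, 2.6 and 1.65 RPKM. Klf6 and Maff fell least, by 0.61 to 1.57 on the log2 scale, and Egr2 ended between 0.04 and 0.207 RPKM.

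Patterns over the 6 libraries were compared by the root mean square difference of log2(RPKM + 1) after each gene's own mean was removed, among 8256 entries of at least 5 RPKM on average. Nrn1 (0.239), Tmem176b (0.272) and Vim (0.322) were the entries most like Etv4. Impdh1 (0.176), Dhcr7 (0.185) and Mvd (0.199) were nearest to Spry4. The nearest of the other members was Etv4 for Egr1, at rank 38, Spry2 for Spry4, at rank 92, and Spry4 for Etv4, at rank 132. Lsm14a (0.010) was nearest to the steady Etv5, which had no other member closer than rank 3116.

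RefSeq promoter windows (GRCm38.p6, 250 bases before to 50 after a start) were taken for 6 of the 10 genes, Fgf4, Fgfr2, Etv5, Spry2, Dusp6 and Spred1, in 7 windows. They were searched on both strands for the ETS motif CCGGAAG, the AP-1 motif TGANTCA, the CRE motif TGACGTCA and the CArG box of the serum response element. None of the 7 windows held any of them, which says only that these letters are not in these windows. Of 32851 promoter windows 8.86%, 7.81%, 1.79% and 1.63% held the motifs in that order. Fgfr1, Etv4, Spry4 and Egr1 were not searched. Windows on chromosome 18, which holds Spry4 and Egr1, were left out of the search.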

How the data were processed

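The authors selected poly(A) RNA, aligned single-end reads to mm9 and deposited RPKM values per gene, 1 column for each of the 6 libraries. The submitters' processing notes name TopHat 1.14, Bowtie 0.12.7, Cufflinks 1.3.0 and Cuffdiff. Log2 ratio columns of the same table hold the authors' own comparisons and were not used. Log2 changes were computed as log2 of the ratio of RPKM + 0.001, and an entry changed past 1.5-fold. Shares are given over all entries and over those of at least 1 RPKM in either library. No test was run because each condition has 1 library. Depth was estimated on 4339 genes from the position of the lowest peak in RPKM times transcript length, taken as 1 read. On simulated libraries the estimate erred by at most 4.63%. Reads per gene used the median length of its annotated transcripts (GENCODE, NCBIM37), and coordinates come from that annotation. The genes named are the 10 members, entries of the 5 pathway lists that passed 1.5-fold the same way in AP3 against WT at both days or in D3 against D0 in all lines, and the 3 entries nearest in pattern to each member. Nearest entries are given for Etv4 and Spry4 and the first for Etv5, and those of the other members are not reported here. Marker genes and H2afz were named as checks of the labels. Ets1, Fgf3, Fgf10 and the single markers named were picked after their values were seen. The members and lists were chosen with earlier results of these data known. Alternatives were other pseudocounts, a 2-fold threshold, 3 scalings, summed duplicate symbols and the longest transcript. Python 3.11.15, pandas 2.3.3 and numpy 2.4.6 were used.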

Additional observations from a re-analysis of the deposited data

Results flagged for a closer look

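Spry4 and Egr1 moved in opposite directions at D0 and D3 under the same contrast, and this difference was not tested, since each condition has 1 library. For Spry4 the log2 change of AP3 against the library labelled KD was -0.61 at D0 and 0.73 at D3. For Egr1 the log2 change of AP3 against WT was -0.88 at D0 and 0.85 at D3, or 0.57 at D3 with scaling to Gapdh, Tubb5 and Cltc.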

How the results depend on the processing

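Of 540 log2 changes of the 10 genes recomputed under alternatives, 469 moved by less than their 95% counting interval, 71 moved further and 0 changed the sign of a called value. The 469 include values that could not move, since each of the 10 symbols matched 1 entry and summing duplicate symbols left them as they were. This count is therefore no measure of how stable the values are. A 2-fold threshold left 1 changed gene in AP3 against WT at D0, 1 at D3, 0 in KD against WT at D0 and 1 in AP3 against KD at D0. Of all entries 15.2%, 13.9%, 12.5% and 15.9% passed 2-fold in these comparisons, in that order. Scaling to Gapdh, Tubb5 and Cltc left 1 in AP3 against WT at D3 and gave 1 (Fgfr1, lower) in KD against WT at D3, beside 27.8% and 22.5% of all entries. A pseudocount of 1 left 0 in KD against WT at D0, and it also lowered the share of all entries past 1.5-fold, from 25% to 4.78% in AP3 against WT at D0 and from 22.1% to 3.11% at D3. Of the 23 calls, a pseudocount of 1 lost 2 (Fgfr2 in AP3 against WT and Spry4 in KD against WT, both at D0), and the housekeeping scaling lost 2 (Spry4 and Egr1 in AP3 against WT at D3) and gained 4. Centring on the median ratio and upper quartile scaling each gained 1 (Egr1 lower in AP3 against KD at D0), which is also among the 4. The fibroblast sum without Thy1 was computed after seeing the data. Taking the longest transcript raised the reads behind the lowest Fgfr2 value from 98 to 187. No paired analysis was possible because each condition has 1 library. At this depth the counting error is 0.11 or less on the log2 scale outside Fgfr2, and variation between cultures is unknown.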
